A study of Poecilia latipinna with 15 samples.

Results

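The females numbered 1 to 8 are 8 of the 15 female sailfin mollies (Poecilia latipinna) whose whole brains were profiled by RNA-seq. They were taken by the number in their sample titles, and the rule itself uses no expression value. Of these 8 females, 4 (females 3, 4, 5 and 6) were tested in the male-interaction context (Mm), in which a focal female could approach a large or a small male, and 4 (females 1, 2, 7 and 8) were tested in the female-interaction context (Ff), in which the same choice was between a large and a small female. The other 7 females, numbered 9 to 19 with gaps, were 4 Mm and 3 Ff females. All were sexually experienced adults from outdoor ponds that were socially isolated before a non-contact trial, and each brain was taken right after the trial and sequenced on its own. The design has no female without a social stimulus, and stimulus fish were used repeatedly.

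The question for these 8 females was which brain transcripts follow the strength of an individual's preference when females 9 to 19, most of which had low scores, are kept out of the fit. Preference was scored, among all movements a female directed at either stimulus fish, as the proportion made toward the fish she favored. A score of 0.5 means that neither fish was favored, and a score of 1 that each movement went to a single fish. Female mate choice in fish is known to engage sensory processing, steroid and nonapeptide signaling in the forebrain and midbrain, and genes of synaptic plasticity. A whole-brain library averages over all of these regions, so that fewer cells of a type and less RNA per cell cannot be told apart.

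Expression was measured per transcript, as an estimated read count and as TPM (an abundance corrected for transcript length and scaled to the same total in each female). No table used here pairs the Ensembl transcript identifiers with genes, so that 0 of 31813 transcripts have a gene name, markers of brain cell types could not be examined, and each number below counts transcripts. For the same reason only 4 transcripts are named, 2 with positive and 2 with negative slopes.

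Among females 1 to 8 the preference score spanned most of its range. In the 4 Mm females it was 0.762 in female 6, 0.867 in female 3, 0.987 in female 5 and 1 in female 4. In the 4 Ff females it was 0.571 in female 8, 0.63 in female 1, 0.788 in female 7 and 1 in female 2. The mean was 0.904 ± 0.112 (SD, n = 4) in the Mm and 0.747 ± 0.192 (SD, n = 4) in the Ff females. In females 9 to 19 the scores lay between 0.5 and 0.763, and female 10 held the highest of them, with the other 6 at or below 0.56. The check in females 9 to 19 thus leans on female 10.

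**Figure D1:**
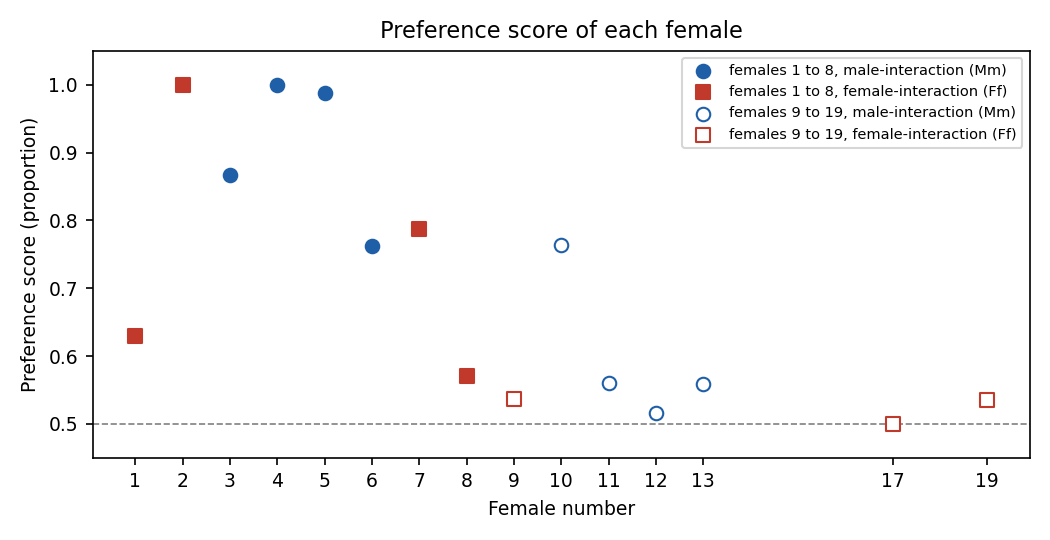
Preference score (proportion, vertical axis) of each of the 15 females by female number (horizontal axis). Filled symbols are females 1 to 8 and open symbols females 9 to 19, circles are Mm and squares Ff, and the dashed line marks no preference. Females 1 to 8 cover 0.571 to 1, and all females from 9 on except female 10 lie at or below 0.56.

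Body size and social affiliation were compared with the score because either could move with it. Standard length averaged 47 ± 5.09 mm (SD, n = 8) in females 1 to 8 and 36.5 ± 5.57 mm (SD, n = 7) in females 9 to 19. Time in the association zones averaged 1606 ± 63.9 s and 1665 ± 108 s in the same females. The study kept only females above a minimum of this time, which narrows its range, and in females 1 to 8 it lay between 1512 and 1673 s. Within females 1 to 8, score and standard length gave r = -0.59 and rho = -0.635 (exact permutation p = 0.13 and 0.101, adjusted p = 0.39 and 0.281 over 9 relations), and r was -0.0246 without females 1 and 8, so that the value rests on those females. For affiliation time r was 0.0898 and rho 0.0838 (exact permutation p = 0.835 and 0.849, adjusted p = 0.835 and 0.849), and r was 0.807 without females 1 and 8, so that this value rests on those females. For the total count r was -0.495 and rho -0.599 (exact permutation p = 0.216 and 0.125, adjusted p = 0.486 and 0.281), and r was -0.236 without the same 2 females. For the number of transcripts detected r was -0.399 and rho -0.479 (exact permutation p = 0.321 and 0.231, adjusted p = 0.578 and 0.416), and r was -0.455 without them. Each context holds 4 females, which is too few for a correlation within it.

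The libraries of females 1 to 8 held between 3424641 and 10555933 estimated counts (median 5946977), against 5301116 to 7166756 in females 9 to 19. Female 4, one of the 2 females with a score of 1, had the smallest library, and female 8, with the lowest score of the 8, had the largest. The number of transcripts with a count was 23555 to 25530 in females 1 to 8, against 22692 to 24340 in females 9 to 19. The counts of each pair of the 8 libraries differed by far more than sampling noise (lowest chi-square over degrees of freedom 10.36). The threshold of the study, a TPM above 2 in 3 or more of the 15 females, was set here on transcripts. The study set it on genes, so that the 2 filtered sets are not the same. Here it left 21671 transcripts to be tested, which hold 99.5% to 99.6% of the counts.

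In voom and limma, and in edgeR, no transcript followed the preference score of females 1 to 8 past the adjusted threshold, and in DESeq2 17 did. With context in the model and a single slope on the score, voom and limma called 0 transcripts (0%) at an adjusted p below 0.05, and the smallest adjusted p was 0.999. At an unadjusted p below 0.05, 804 of the 21671 transcripts (3.71%) passed, fewer than the 1084 that 5% of the transcripts would be. Of these, 414 had a positive slope (higher at a higher score) and 390 a negative one. edgeR's quasi-likelihood test gave 0 transcripts at the adjusted and 786 at the unadjusted threshold. The split between directions depended on the tool and on the scale, with 51.5% positive in voom and limma, 40.2% in edgeR, 35.3% in DESeq2 and 38.5% in limma on log2(TPM + 1).

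Beside its 17 calls, DESeq2 passed 919 transcripts at the unadjusted threshold. Of the 17, 8 had a positive and 9 a negative slope, 12 were also past the unadjusted p in limma and 16 in edgeR. A count of 0 in at least 1 of the 8 females was seen in 10 of the 17, and in 15% of all 21671 transcripts tested. Female 2, the Ff female with a score of 1, had the highest TPM of the 8 females in 6 of the 17 and the lowest in 4. The 17 were called for following the score, on which female 2 is at the top, so that these counts are a description. For the counts of female 2 the share over all transcripts was not counted. In females 9 to 19, fitted with DESeq2, 9 of the 17 had the same sign as in females 1 to 8, and 2 of them were past an unadjusted p of 0.05 with that sign. Over all 21606 transcripts with a value in both DESeq2 fits, 51% had the same sign, so that 9 of 17 is near the background. For the 2 past the unadjusted p, the share over all transcripts was not counted, so that no background stands beside them.

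**Figure D2:**
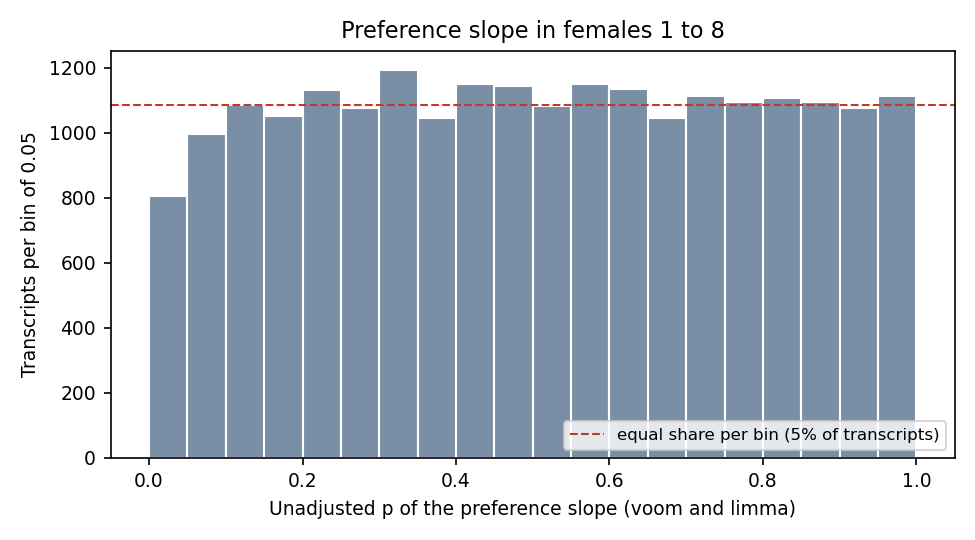
Histogram of the unadjusted p-value (horizontal axis, bins of 0.05) of the preference slope in females 1 to 8 for the 21671 transcripts tested (vertical axis, transcripts per bin). The dashed line is the height of 5% of the transcripts, 1084, and the first bin, with 804, stands below it.

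The slopes themselves were centered near 0. On the scale of log2 expression per unit of score, the median slope was 0.01, with quartiles at -0.74 and 0.59. The 95% interval of a single slope had a median half-width of 2.1. For a typical transcript, only a slope larger in size than 2.1 could be told from 0, before any adjustment. The scores of females 1 to 8 ran only from 0.571 to 1, which is less than a whole unit. The fitted log2 change along these scores is thus smaller in size than the slope, here and for the named transcripts. The count at the unadjusted threshold rested in part on single Ff females. It was 507 without female 2, the Ff female with the highest score, and 1238 without female 1. With standard length as a further term it was 1412.

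The median of these 804 transcripts was 9.46 TPM and 2004 bases, against 11.3 TPM and 1782 bases over the 21671 transcripts. A count of 0 in at least 1 of the 8 females was found in 23.8% of them and in 15% of all transcripts. The share past the unadjusted p was 5.11% of the 2075 transcripts with a mean under 2 TPM, 4.06% between 2 and 5 TPM, 3.52% between 5 and 20 TPM, 3.19% between 20 and 100 TPM and 4% of the 1350 transcripts over 100 TPM. The sizes of these slopes went with the level, as did the precision. The median standard error over all transcripts was 4.14 under 2 TPM and 0.48 over 100 TPM. Only slopes large against their standard error pass, so that the threshold alone sets larger sizes at low levels. The median size among the transcripts past the unadjusted p was 12.08 (log2 per unit of score) under 2 TPM and 1.13 over 100 TPM, so that the large slopes belonged to transcripts with few reads. By length, the share ran from 2.52% of transcripts up to 500 bases to 4.6% of the 3369 longest ones. Of the 48 that passed among the shortest transcripts, 39 had a positive slope. Among the 804 of all lengths 51.5% did. The share of positive slopes over all of the shortest transcripts was not counted. Their median slope was 0.1, against 0.01 over all 21671 transcripts. These values describe the list and were not tested.

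The transcript with the smallest p was ENSPLAT00000017126.1 (3717 bases). It was chosen for following the score, so that its values in females 1 to 8 are a description, and among these 8 it exceeded 2 TPM only in the 3 females in which it was high. Its level was 0 TPM in females 8, 1, 6 and 7, with scores from 0.571 to 0.788, and 0.000322 TPM in female 3, with a score of 0.867. It was 2.08 TPM in female 5, 9.28 TPM in female 2 and 2.81 TPM in female 4, which have the 3 highest scores. These levels came from 34.8, 143.5 and 26.5 estimated counts. The 3 females with reads include both contexts, and they do not overlap with the other 5. Its slope was 29.67 ± 4.67 (SE, log2 per unit of score, limma unadjusted p = 0.000226, adjusted p = 0.999). Since most of the females have no reads, this slope depends on the small count that is added before the logarithm and is not a bound on the change. On log2(TPM + 1) it was 7.90. DESeq2 called it (adjusted p = 0.00265) and edgeR did not (adjusted p = 0.786).

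In females 9 to 19, which took no part in that choice, the same transcript was at 5.41 TPM in female 10, the one with the highest score of that number group. It was at 0.324 TPM in female 11, at 0 TPM in females 19, 9 and 13, and below 0.001 TPM in females 17 and 12. Female 10 thus stood apart from the other 6. Its slope there was 29.05 (standard error 5.19, limma unadjusted p = 0.000569, adjusted p = 0.742). The unweighted slope on log2 CPM was 22.34. With the scores permuted within context over all 144 orders, the exact 2-sided p of that unweighted slope was 0.0833. Most of these females too have no reads or almost none, so that both slopes depend on the added count. The smallest p that these orders can give is 0.00694.

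ENSPLAT00000022620.1 (2964 bases) had the next smallest p in the positive direction. Among females 1 to 8 it exceeded 2 TPM in females 2 and 4 alone, so that it was tested only because of its levels in females 9 to 19, and it is not among the transcripts tested when the filter is set on females 1 to 8. Along the scores of females 1 to 8 from low to high, it was at 0.00748, 5.55e-05, 0.25, 1.14, 1.31, 1.78, 15.6 and 3.86 TPM in females 8, 1, 6, 7, 3, 5, 2 and 4. The 4 females with the lowest scores were at or below 1.14 TPM, and female 2 was far above the rest. Its slope was 17.52 ± 2.86 (SE, log2 per unit of score, limma unadjusted p = 0.000284, adjusted p = 0.999). Females 8 and 1 had less than 1 estimated count each, so that this slope too depends on the added count, and on log2(TPM + 1) it was 8.91. DESeq2 called it (adjusted p = 8.27e-06) and edgeR did not (adjusted p = 1).

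In females 9 to 19, through which it passed the filter, its level was 10.1, 18.7, 19.2, 18.9, 17.4, 4.94 and 19.5 TPM in females 17, 12, 19, 9, 13, 11 and 10, again from the lowest to the highest score. Female 17, with the lowest score of all 15, was above 7 of the 8 females numbered 1 to 8. In these females its slope was 3.65 ± 3.13 (SE, limma unadjusted p = 0.279, adjusted p = 0.919). The unweighted slope on log2 CPM was 3.35, with an exact permutation p of 0.5.

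ENSPLAT00000003398.1 (4821 bases) had the smallest p of the negative slopes. It was at 19.3, 25.4, 19.9, 14.2, 16.6, 13.8, 6.66 and 12.9 TPM in females 8, 1, 6, 7, 3, 5, 2 and 4, in order of rising score. The 3 females with the lowest scores had the 3 highest levels, and the 2 females with a score of 1 had the 2 lowest. Its slope was -3.55 ± 0.60 (SE, log2 per unit of score, limma unadjusted p = 0.000373, adjusted p = 0.999). DESeq2 called it (adjusted p = 0.000434) and edgeR did not (adjusted p = 1). Without female 2 the slope was -2.51.

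In females 9 to 19 this transcript was at 20.8, 20.3, 3.87, 9.27, 13.4, 12.1 and 5.75 TPM in females 17, 12, 19, 9, 13, 11 and 10. The 2 lowest scores went with the highest levels, and among the 4 Mm females female 10, with the highest score, was the lowest. The slope was -7.36 (standard error 2.91, limma unadjusted p = 0.0364, adjusted p = 0.834). The unweighted slope on log2 CPM was -7.04, with an exact permutation p of 0.0208. ENSPLAT00000003398.1 was the only one of the 4 named transcripts with an exact permutation p below 0.05 in females 9 to 19. Its limma p did not pass after adjustment. The 4 permutation p-values were not adjusted for each other.

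ENSPLAT00000016748.1 (3405 bases) had the next smallest p among negative slopes that kept their sign in each context. It was at 12.9, 13.1, 17.3, 11.4, 14.3, 11.5, 6.72 and 10.3 TPM in females 8, 1, 6, 7, 3, 5, 2 and 4. Within the Mm females the level went down with each step of the score. Within the Ff females the 2 lowest scores had nearly the same level and female 2 the lowest of all 8 females. Its slope was -2.35 ± 0.50 (SE, log2 per unit of score, limma unadjusted p = 0.00163, adjusted p = 0.999, DESeq2 adjusted p = 0.066). In females 9 to 19 it was between 5.27 and 14.1 TPM. Its slope there was -1.36 ± 1.85 (SE, limma unadjusted p = 0.485, adjusted p = 0.961). The unweighted slope on log2 CPM was -1.4, with an exact permutation p of 0.0556.

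**Figure D3:**
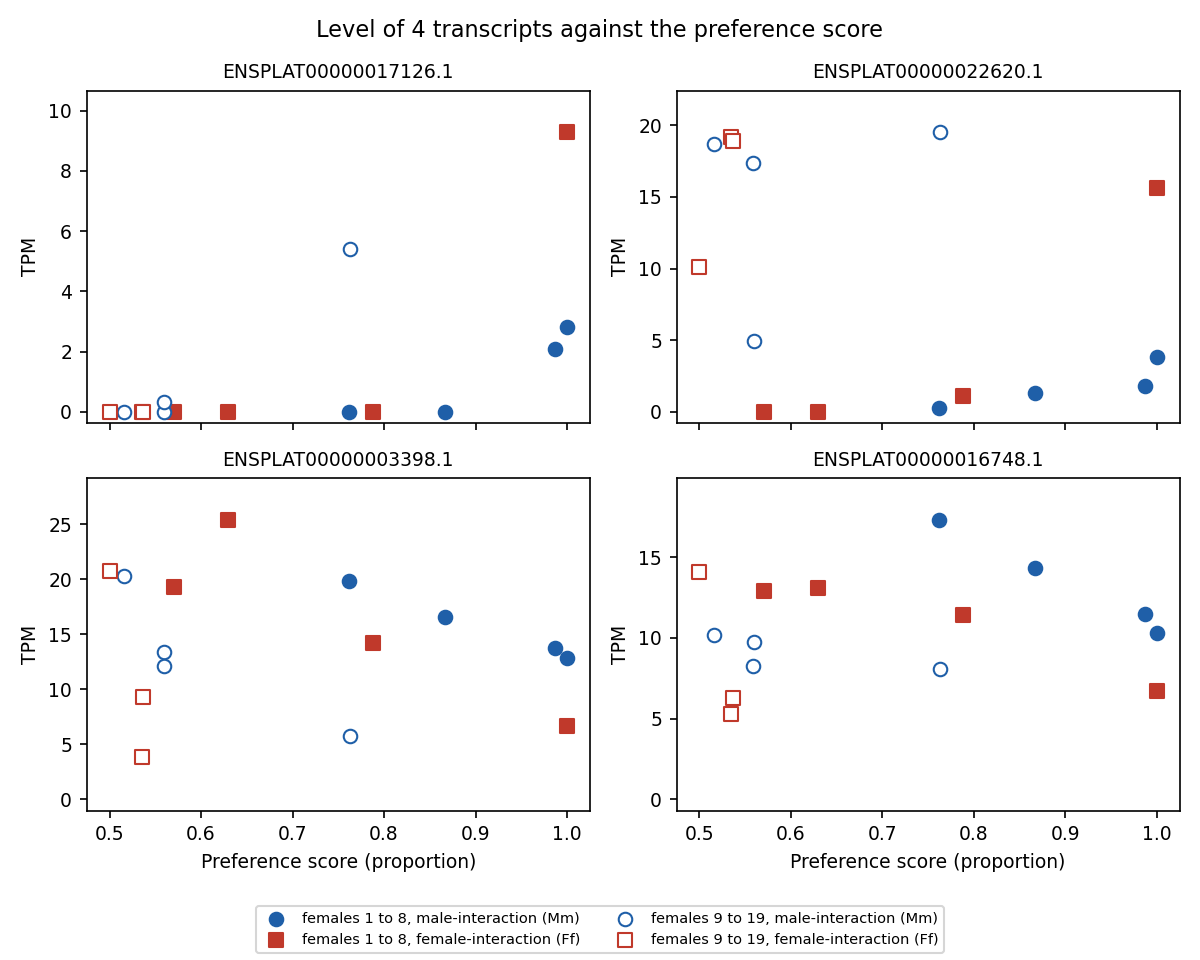
TPM (vertical axes) of the 4 named transcripts against the preference score (horizontal axes) in each female, with filled symbols for females 1 to 8, open symbols for females 9 to 19, circles for Mm and squares for Ff. ENSPLAT00000017126.1 is near 0 except in females 5, 2, 4 and 10, and for ENSPLAT00000022620.1 the open symbols, at 4.94 to 19.5 TPM, lie above the filled ones of all females but female 2.

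The study separated mate preference from shoaling partner preference by fitting a slope in each context, and the same model was fitted within females 1 to 8. At an unadjusted p below 0.05, 585 transcripts (2.7%) passed for the slope of the 4 Mm females and 739 (3.41%) for that of the 4 Ff females. Of these, 254 of the Mm and 464 of the Ff slopes were positive. The difference between the slopes, Mm minus Ff, passed in 650 transcripts (3%). After adjustment limma called 0 transcripts for the Mm slope, the Ff slope and their difference, edgeR also called 0 for each, and DESeq2 called 63, 74 and 83. A total of 55 transcripts passed the unadjusted p in both contexts, 9.4% of the Mm and 7.44% of the Ff transcripts, 28 with the same and 27 with opposite signs. Both slopes come from a single fit and share the variance estimate of each transcript. Passing in 1 context is thus not independent of passing in the other, and the overlap was not tested. Over all transcripts tested, the Mm and Ff slopes shared their sign in 48.7%. The Ff count rested on single females, at 1523 without female 1 and 383 without female 2, and the count for the difference was 1126 without female 1.

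The 4 Mm scores lie closer together than the Ff scores, and the Mm slopes were less precise. The median standard error was 2.04 for the Mm slope and 1.03 for the Ff slope (log2 per unit of score). For ENSPLAT00000017126.1 the slope was 39.56 (standard error 10.91) in the Mm and 27.16 (standard error 5.13) in the Ff females. For ENSPLAT00000022620.1 it was 10.87 (standard error 4.29) and 20.02 (standard error 2.95) in the same order of contexts. For ENSPLAT00000003398.1 it was -2.49 (standard error 1.18) in the Mm and -3.90 (standard error 0.71) in the Ff females, and for ENSPLAT00000016748.1 it was -2.87 (standard error 1.04) in the Mm and -2.16 (standard error 0.61) in the Ff females. The difference between contexts did not pass in any of the 4 (limma unadjusted p = 0.338, 0.122, 0.339 and 0.575, adjusted p = 0.999 each). Agreement in sign was part of the rule that chose them.

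The signs of the slopes were then compared with those in females 9 to 19, which share no female with the first fit. Of the 804 transcripts past the unadjusted p in females 1 to 8, 801 had a count in females 9 to 19, and 415 of them (51.8%, exact binomial 95% interval 48.3% to 55.3%) had a slope of the same sign there. Over all 21628 transcripts with a count, 51.3% had the same sign. The interval holds the share over all transcripts, and it treats transcripts as independent although they are not. The 2 shares lay further apart in other fits. With ranks of the score they were 59.6% of 942 transcripts and 53.8% over all. With all 15 females and a slope per number group they were 60% of 844 and 52.2%. That last fit shares its context term between the number groups, so that its 2 slopes are not separate estimates and their agreement is no independent check. In the main fit the share was 52.4% for positive and 51.2% for negative slopes. Of all slopes in females 9 to 19, 54% were positive, which favors the same sign for positive slopes and the opposite sign for negative ones. The share over all transcripts of each direction was not counted. At an unadjusted p below 0.01 the share with the same sign was 61 of 119 (51.3%). At a p below 0.001 it was 7 of 9 (exact binomial 95% interval 40% to 97.2%).

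Past the unadjusted p in females 9 to 19 were 1278 transcripts (5.91%), 1002 of them with a positive slope. Of the 801, 48 were among them (5.99%), 27 with the same and 21 with the opposite sign. For positive slopes in females 1 to 8 these counts were 17 and 4, and for negative slopes 10 and 17. Read the other way, 595 of the 1278 (46.6%) had the same sign in females 1 to 8. After adjustment 0 of the slopes in females 9 to 19 passed in limma, and DESeq2 called 39. By level, the share with the same sign among the transcripts past the unadjusted p in females 1 to 8 ran from 37.5% under 2 TPM to 61.1% of the 54 transcripts over 100 TPM, where it was 50.3% and 54.7% over all transcripts of these levels. Without female 10 the share was 60.5% of 797 transcripts, against 55.6% over all. The scores left in that fit ran only from 0.5 to 0.56, so that its slopes rest on small differences in preference. With female 10 kept and context left out of the model, the order of the shares was turned, with 44.1% against 47.8%.

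**Figure D4:**
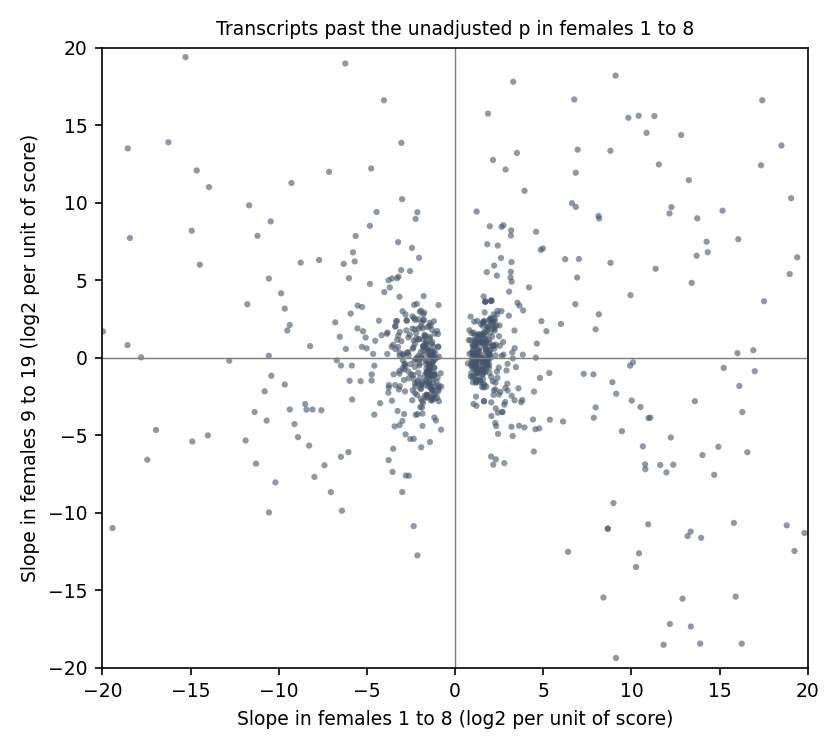
Preference slope in females 1 to 8 (horizontal axis) against that in females 9 to 19 (vertical axis), both in log2 per unit of score, for the 750 of the 801 transcripts past the unadjusted p in females 1 to 8 whose slopes lie within 20 on both axes; 51 lie outside. The points spread over all 4 quadrants, and 415 of the 801 have the same sign on both axes.

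Set beside the fits that use more females, the slope within females 1 to 8 passed in the smallest share of transcripts. With all 15 females, context and a single slope, 3263 transcripts (15.1%) passed the unadjusted p and 3 the adjusted one. With the number group (females 1 to 8 against 9 to 19) as a term, 913 (4.21%) and 1 passed. Within females 1 to 8 these counts were 804 and 0. The fits share females and were not tested against each other. The median half-width of the 95% interval of a slope was 2.1 in females 1 to 8, 4.81 in females 9 to 19, 1.94 in all 15 with the number group and 1.36 without it (log2 per unit of score).

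The widest variation among the 8 brains followed the number of the female. The first principal component of expression held 23.7% of the variance. Its values were -102.1 in female 1, -98.2 in female 2, -37.9 in female 3, -9.1 in female 4, 48.8 in female 5, 15.1 in female 6, 86.2 in female 7 and 97.3 in female 8. Only females 5 and 6 break the order. The correlation with the number was r = 0.965 and rho = 0.976 (exact permutation p = 0.000446 and 0.000397, adjusted p = 0.00401 and 0.00357 over 9 relations), and r was 0.935 without females 1 and 8. This relation was examined after the component had been seen. With the preference score r was -0.238 and rho -0.311 (exact permutation p = 0.555 and 0.448, adjusted p = 0.714 and 0.576), and r was -0.475 without females 1 and 8. For the second component, with 16.6% of the variance, r with the score was -0.591 and rho -0.611 (exact permutation p = 0.125 and 0.118, adjusted p = 0.39 and 0.281), and r was -0.66 without the same 2 females.

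**Figure D5:**
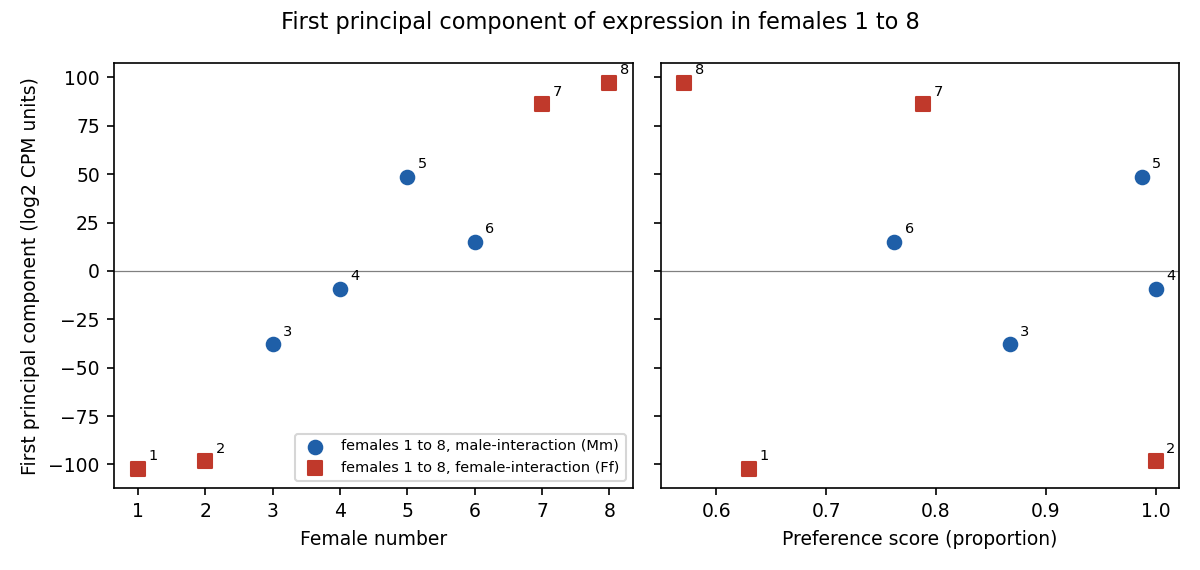
First principal component of log2 expression in females 1 to 8 (vertical axes, log2 CPM units) against the female number (left) and the preference score (right), with the number beside each point, circles for Mm and squares for Ff. The component runs from -102.1 in female 1 to 97.3 in female 8 along the number, and shows no such order along the score.

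With context, score and number in one model, 3176 transcripts (14.7%) passed the unadjusted p for the number, against 870 for the score, and limma called 0 for either after adjustment. For the number, 1621 slopes were positive and 1555 negative. edgeR called 0 and DESeq2 1243 at the adjusted threshold, and the unadjusted count was 2029 without female 1. The pattern was examined in females 9 to 19 as well. Of the 3166 of these transcripts with a count there, 52.7% had the same sign for the number, against 52% of all transcripts. On the component of females 1 to 8, females 9, 10, 11, 12, 13, 17 and 19 lay at -20.1, 50.7, -3.7, 2.4, 28.3, 14.9 and -6.3, with no order along their numbers. What the female numbers record, and how libraries were spread over lanes, is not given in the sources used here, and their part in these values was not tested. Within the 8 females the score and the number gave r = -0.313 and rho = -0.383 (exact permutation p = 0.436 and 0.345, adjusted p = 0.654 and 0.518, r = -0.676 without females 1 and 8).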

How the data were processed

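Whole-brain RNA-seq of 15 females was used. After quality and adapter trimming, kallisto 0.43.0 (version from the submitters' processing notes) was run on single reads against the sailfin molly transcripts of Ensembl, and the authors deposited the estimated count of each transcript, unscaled between libraries. kallisto splits reads shared by similar transcripts, so that values of single transcripts are uncertain. In the same files the authors deposited TPM values. Context and number came from the sample titles, and preference score, standard length and affiliation time from the behavioral table of the study. The study summed transcripts to genes and adjusted p-values by shuffling labels, neither of which was done here.

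The filter kept transcripts that exceeded 2 TPM in at least 3 of the 15 females, and estimated counts were rounded. The model ~0 + Context + Preference was fitted with voom, TMM factors and limma 3.58.1 in R 4.3.3 to females 1 to 8, and separately to females 9 to 19, with Benjamini-Hochberg adjustment over all transcripts tested. The slopes within contexts used ~0 + Context + Context:Preference. edgeR 4.0.16 and DESeq2 1.42.0 were alternatives, beside other scalings, filters, units, weights and terms and each female left out. The adjusted p of DESeq2 was taken with its default filters, so that its adjustment need not cover all transcripts tested, unlike that of limma and edgeR. The code was tested on simulated data.

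The named transcripts are the 2 with the smallest p in each direction whose slopes had the same sign in both contexts. Members, rule and tests were chosen with earlier results of these data known. Each library is a different female, so that p-values measure the spread between individuals. Counting intervals cover counting error only.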

Additional observations from a re-analysis of the deposited data

Results flagged for a closer look

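In 27 groups of 4 females (9 measures, by context within the number groups), 5 had a female far from the other 3. For normally distributed values, chance flags about 1 in 20 groups. This rate does not apply to the named transcripts in females 1 to 8, which were chosen for following the score, and female 2 has the highest score of her context. Nor does it apply to ENSPLAT00000017126.1 in females 9 to 19, where most levels are at or near 0 TPM. In the Ff females of 1 to 8, female 2 stood apart for ENSPLAT00000017126.1, at 9.28 TPM with the others at 0, and for ENSPLAT00000022620.1, at 15.6 TPM with the next at 1.14 TPM. In the Mm females of 9 to 19, female 10 stood apart for ENSPLAT00000017126.1, at 5.41 TPM with the next at 0.324 TPM, and in transcripts detected, 24340 with the next at 22945. Female 11 was low for ENSPLAT00000022620.1, at 4.94 TPM with the next at 17.4 TPM. Female 10 has the highest score of females 9 to 19.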

How the results depend on the processing

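Over all alternatives except DESeq2, no transcript passed the adjusted threshold for preference, for the Mm or Ff slope or for their difference. DESeq2 called 17, 63, 74 and 83, and for the female number 1243. The alternative fits gave 105 slope values for the 4 named transcripts together, and all kept their sign. Of the 4 transcripts, 3 passed the adjusted threshold in DESeq2 and nowhere else. These transcripts were chosen for their slopes in the same females, so that the kept signs are a description and no separate check. On log2(TPM + 1) the slopes of ENSPLAT00000017126.1 and ENSPLAT00000022620.1 were 7.90 and 8.91, and on log2(TPM + 0.1) 16.83 and 16.47. The unadjusted count of 804 was 1208 with no filter, 1412 with standard length as a term, and 507 to 1238 with 1 female left out. With no filter more transcripts are tested, so that 1208 and 804 are not counts out of the same total. There, 26988 transcripts had a value in both number groups, against 21628 in the main fit.

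The share of positive slopes among these was 40.2% with edgeR, 35.3% with DESeq2, 38.5% and 34% on log2(TPM + 1) and log2(TPM + 0.1), 45.2% with a count of 10 in each female, 42.5%, 46.3% and 55.2% with standard length, library total and female number as terms, 37.9% without context, 46.8% with all 15 females and a slope per number group, and 45.9% to 62.4% with 1 female left out. The share with the same sign in females 9 to 19 is given with the share over all transcripts in brackets. It was 59.6% with ranks of the score (53.8%), 48% with standard length (48.6%) and 57.9% with library total (56.3%). With female number it was 58.5% (54.9%), without context 44.1% (47.8%) and with all 15 females 60% (52.2%). Without female 10 it was 60.5% (55.6%), with the scores left running only from 0.5 to 0.56. With 1 of females 1 to 8 left out it was 48.9% to 58.9% (48.2% to 56.1%). The highest of these, without female 2, was 58.9% (55.1%). The fit of all 15 females shares its context term between the number groups, so that its share is no independent check.

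Unadjusted counts for the Mm slope were 1141 with DESeq2, 1140 and 1152 on log2(TPM + 1) and log2(TPM + 0.1), 971 with female number, 884 with females 1 to 4 against 5 to 8 as a term, and 476 to 796 with 1 female left out. For the Ff slope they were 1344 with DESeq2, 1198 with no filter, 3154 with sample quality weights, 1257 with standard length and 383 to 1523 with 1 female left out. The count of 1198 is again out of more transcripts tested. For the difference they were 1421 with DESeq2, 1133 and 1140 on the 2 TPM scales, 1080 with weights, 1062 with female number, 1051 with females 1 to 4 against 5 to 8, and 438 to 1126 with 1 female left out. For the female number the count was 2029 to 3738 with 1 female left out, and r of the number with the first component was 0.85 on log2(TPM + 1) and 0.881 to 0.971 with 1 female left out. The causes were not tested. The 2 terms for the number, and all alternatives for it, were chosen after seeing the data. Contexts hold too few females for correlations within them, and a slope per context without context in the model was not fitted. No paired analysis was possible because each number marks a different female and no number occurs in both contexts.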
